A study of Mus musculus with 32 samples.

Results

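Hepatic gene expression was compared between 28 and 12 weeks of age in male C57Bl/6 mice (C57Bl/6J in the methods of the study) whose parents had both been fed a low-fat (LF) diet. The sample titles gave 9 such livers at 28 weeks and 7 at 12 weeks, which together are 16 of the 32 arrays of the series. Both parents ate the LF diet, a standard chow with 9% of its energy from fat, from 6 weeks before mating until the end of lactation, and the offspring were weaned onto a high-fat (HF) diet with 45% of its energy from fat. These mice are called LF/HF offspring. The other 16 arrays came from offspring of parents on the HF diet (HF/HF offspring, 9 mice of 28 weeks and 7 of 12 weeks, weaned onto the same HF diet), and they were used to estimate the spread of each gene and to test whether a change with time differed with the diet of the parents. No offspring at either age ate the LF diet after weaning, so age and time on the HF diet cannot be told apart. The labels do not give the litters, and the p-values measure the spread between these mice only.

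The liver takes up, burns, stores and exports fatty acids, and it breaks down steroids, bile acids and foreign compounds with cytochrome P450 enzymes. Many of its genes for fat oxidation are switched on by the nuclear receptor PPARα, which binds fatty acids, and many P450, transporter and secreted protein genes differ between the sexes of the mouse because males and females release growth hormone in different patterns. Liver also makes most of the complement and coagulation proteins of the blood, and its genes follow the daily cycle of light and feeding.

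RNA was measured on Affymetrix arrays with 1 probe set per gene, and each value below is an intensity after robust multichip averaging (RMA), in arbitrary units, which can be compared between mice for 1 gene but not between genes. Median intensities of the arrays ranged between 8.54 and 8.79 at 28 weeks and between 8.39 and 9.20 at 12 weeks. The summed intensity of 5 hepatocyte markers (Alb, Apoa1, Ttr, Hnf4a and Cps1) was 29398 to 30796 at 28 weeks and 30459 to 31604 at 12 weeks, and hepatocyte RNA was abundant in all 16 livers. In whole tissue, fewer cells of a type and less RNA per cell cannot be told apart. A pair of livers carried skeletal muscle RNA: the mean log2 intensity of 36 muscle genes was 5.64 in LF/HF 28 weeks replicate 8 and 7.87 in LF/HF 12 weeks replicate 1, against 2.46 to 2.71 in the other 14 LF/HF livers. It was 3.67 in HF/HF 12 weeks replicate 3 and 2.46 to 2.78 in the other 15 HF/HF livers, and without that mouse 200 genes were called in LF/HF offspring, 166 of them among the 166 called with it. The leading counts are therefore also given without those 2 mice.

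Between 28 and 12 weeks, 166 of 21115 genes (0.786%) passed an adjusted P of 0.05 (limma, Benjamini-Hochberg over all genes), and these are the genes called below. Of these, 80 (0.379% of all genes) were higher and 86 (0.407%) lower at 28 weeks. The change was over 2-fold for 24 of them, 13 higher and 11 lower. The criterion of the study for a single gene, an unadjusted P under 0.05 with a fold change over 1.2, was met by 1525 genes (7.22%), 698 higher (3.31%) and 827 lower (3.92%) at 28 weeks, and an unadjusted P under 0.05 alone by 2575 (12.2%), 6.17% higher and 6.02% lower. In 70 genes (0.332%) the ranges of the mice did not overlap, in 40 of them (0.189%) with all 28-week mice above and in 30 (0.142%) with all below. Over all genes the median log2 difference was 0.01, and 53.4% of genes lay above 0. Without the 2 livers with muscle RNA 111 genes were called, 49 higher and 62 lower, and 98 of them were among the 166.

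Large increases were in genes such as the P450 genes Cyp2b9 and Cyp4a14 and the acyl-CoA thioesterase Acot3. The largest decreases were in Egr1, a transcription factor gene that is switched on within minutes of a stimulus, in Selenbp2, a selenium-binding protein, and in Igfbp1, a circulating binding protein for insulin-like growth factors. The thyroxine-binding globulin gene Serpina7, the cadherin genes Cdh18 (higher) and Cdh1 (lower) and the esterase Ces4a (lower) were also among the 12 largest changes in their direction.

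**Figure D1:**
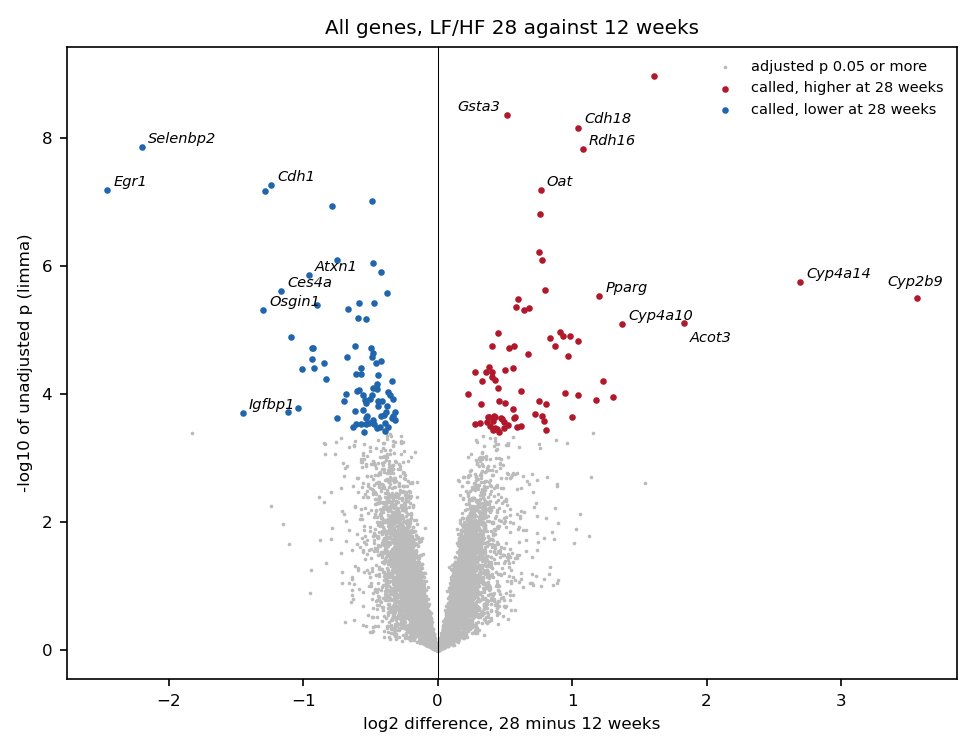
Each point is 1 of 21115 genes, with the log2 difference (28 minus 12 weeks, LF/HF offspring) on the x axis and the -log10 of the unadjusted P from limma on the y axis. The 80 genes called higher are red and the 86 called lower are blue, and Cyp2b9 lies furthest to the right.

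Serpina7, which carries thyroid hormone in the blood, measured 89.5 to 432 (median 257) at 28 weeks and 53.8 to 136 (median 104) at 12 weeks, and 7 of the 9 mice of 28 weeks lay above every mouse of 12 weeks (log2 difference 1.31 ± 0.30, SE, limma, adjusted P = 0.0247, n = 9 and 7). That call was lost in 5 of the 16 refits that left out 1 mouse, with an adjusted P of up to 0.0775 without LF/HF 12 weeks replicate 1. Cdh18, a cell adhesion gene, was low in all livers, at 9.05 to 15.8 at 28 weeks against 5.17 to 7.59 at 12 weeks (log2 difference 1.04 ± 0.14, adjusted P = 4.85e-05).

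Cdh1, which encodes E-cadherin, the adhesion protein of epithelial cells, ranged between 47.2 and 137 (median 88.0) at 28 weeks and between 173 and 241 (median 203) at 12 weeks, with no overlap (log2 difference -1.24 ± 0.18, limma, adjusted P = 0.000159). Ces4a measured 6.41 to 10.2 at 28 weeks and 9.53 to 33.7 at 12 weeks, and 7 of 9 older mice lay below all younger ones (log2 difference -1.16 ± 0.21, adjusted P = 0.00245). Atxn1, a transcriptional regulator, was 38.5 to 52.8 at 28 weeks and 54.9 to 140 at 12 weeks, again without overlap (log2 difference -0.96 ± 0.16, adjusted P = 0.00161). Gask1a, Adgrf1 and Eif4ebp3, the last an inhibitor of cap-dependent translation, also fell, by 1.09, 1.04 and 1.01 on the log2 scale (adjusted P = 0.00639, 0.0309 and 0.0131). The Adgrf1 call was lost in 10 of 16 refits without 1 mouse (adjusted P up to 0.0742, without LF/HF 12 weeks replicate 3).

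**Figure D2:**
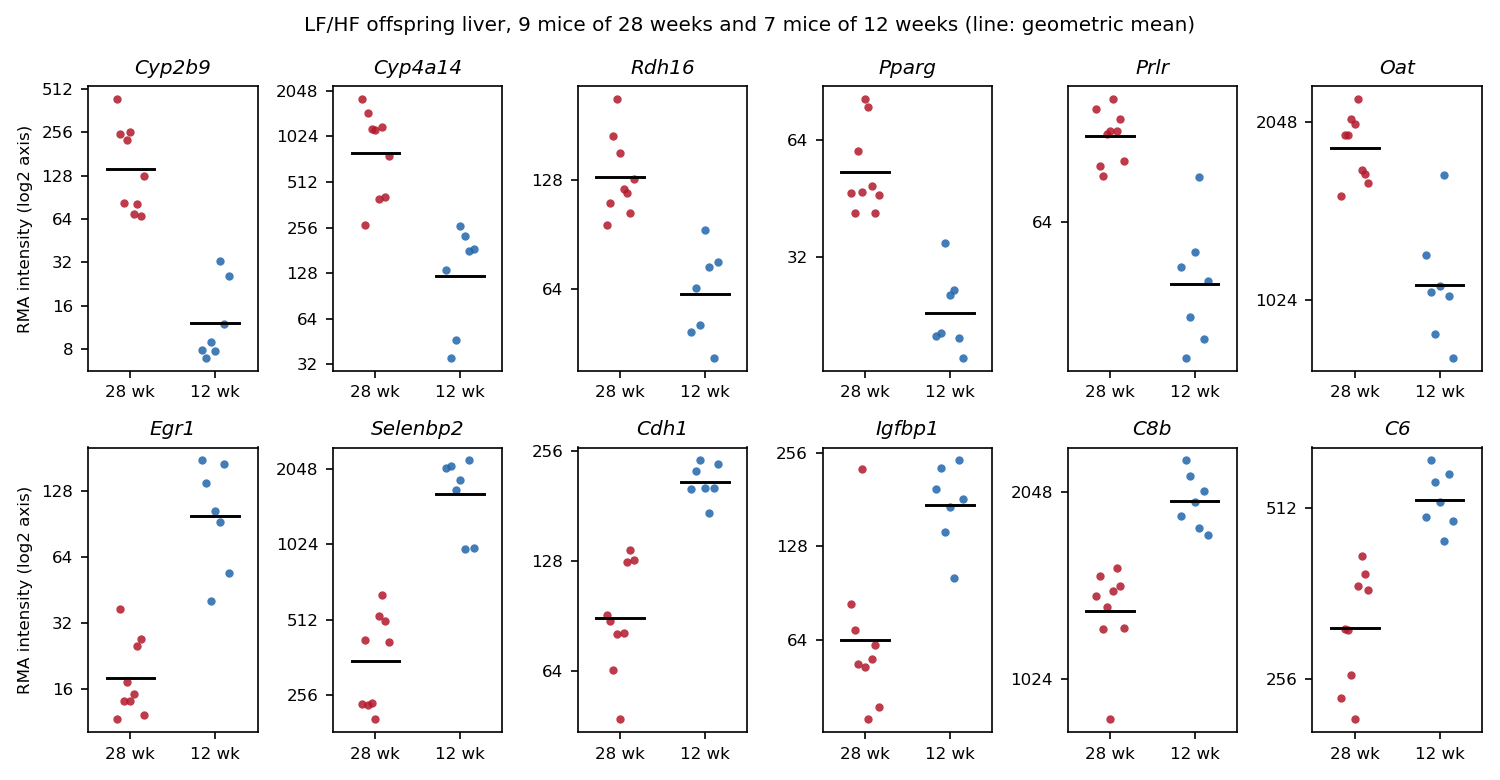
RMA intensity (log2 axis, arbitrary units) of 12 genes in each LF/HF liver, 9 of 28 weeks (red, left) and 7 of 12 weeks (blue, right), with the geometric mean of each group as a line. The upper genes were called higher and the lower genes called lower at 28 weeks, and the groups overlap in Oat and Igfbp1 only.

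Genes of fatty acid oxidation and known PPARα targets were mostly a little higher at 28 weeks. Of 52 measured, 5 were called, all higher at 28 weeks (9.62% of the list, against 0.379% of all genes called higher), and 38 lay above 0. The median log2 difference of the list was 0.09, against 0.01 over all genes. The 5 were the fatty acid ω-hydroxylases Cyp4a14 and Cyp4a10, the acyl-CoA thioesterases Acot3 and Acot4, which free fatty acids from coenzyme A, and Acadl, the mitochondrial long-chain acyl-CoA dehydrogenase. Acadl was named after its value was seen.

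Cyp4a14 was 268 to 1807 (median 1124) at 28 weeks and 35.3 to 264 (median 178) at 12 weeks. The lowest mouse of 28 weeks was level with the highest of 12 weeks, and the ranges did not overlap. The log2 difference was 2.70 ± 0.47, a 6.48-fold change (limma, adjusted P = 0.00197). Cyp4a10 was 490 to 1666 (median 1063) at 28 weeks and 211 to 750 (median 350) at 12 weeks, with 5 of 9 older mice above all younger ones (log2 difference 1.37 ± 0.26, adjusted P = 0.00458). Acot3 was 17.8 to 81.3 (median 38.7) at 28 weeks and 5.56 to 16.3 (median 8.45) at 12 weeks, with no overlap (log2 difference 1.83 ± 0.35, adjusted P = 0.00453). Acot4, a neighbour of Acot3 in the same gene family, changed less, by 1.05 ± 0.21 (adjusted P = 0.0072), and Acadl by 0.28 ± 0.07 (adjusted P = 0.0414, lost in 12 of 16 refits without 1 mouse, up to 0.121 without LF/HF 12 weeks replicate 7). The members of these families are alike in sequence, and how far 1 probe set also bound RNA of another was not tested.

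Ppara itself, Cpt1a, Vnn1 and Abcd2 were not called. Ppara differed by -0.01 ± 0.11 on the log2 scale (limma, adjusted P = 0.985) and Cpt1a, which lets long-chain fatty acids into mitochondria, by -0.11 ± 0.09. Vnn1, a pantetheinase, differed by 0.61 ± 0.25 (adjusted P = 0.294). Abcd2, a peroxisomal transporter of fatty acids, was 83.1 to 200 at 28 weeks and 32.2 to 93.1 at 12 weeks, with 8 of 9 older mice above all younger ones (log2 difference 1.15 ± 0.29, adjusted P = 0.0515). Acnat2, a peroxisomal acyltransferase that joins fatty acids to amino acids, measured 15.6 to 70.9 (median 54.8) at 28 weeks and 9.49 to 28.6 (median 17.5) at 12 weeks (log2 difference 1.23 ± 0.27, adjusted P = 0.017). Its adjusted P was 0.0518 without LF/HF 12 weeks replicate 4 and 0.0501 without the 2 livers with muscle RNA.

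Lipid droplet and lipid storage genes gave 3 calls among 34 measured, all higher at 28 weeks (8.82%, against 0.379% of all genes called higher), with 18 members above 0 and a median of 0.02. Without the 2 livers with muscle RNA 1 was called and the median was 0.04. Pparg, the nuclear receptor that drives fat storage, was 41.4 to 81.4 (median 46.8) at 28 weeks and 17.6 to 34.6 (median 20.4) at 12 weeks. The groups did not overlap, and the change was 2.30-fold (log2 difference 1.2 ± 0.21, limma, adjusted P = 0.00272). Fitm1, which helps to form lipid droplets, was 233 to 712 at 28 weeks and 96.4 to 314 at 12 weeks (log2 difference 1.0 ± 0.24, adjusted P = 0.0373), and its call was lost in 9 of 16 refits without 1 mouse (up to 0.1003, without LF/HF 12 weeks replicate 2). Fabp2, a fatty acid carrier, was 681 to 1359 at 28 weeks and 479 to 773 at 12 weeks (log2 difference 0.62 ± 0.15, adjusted P = 0.0432, lost in 12 of 16 such refits, up to 0.114 without LF/HF 12 weeks replicate 3). The droplet coat gene Plin2 differed by -0.01 ± 0.12, the fatty acid receptor gene Cd36 by 0.74 ± 0.32 (adjusted P = 0.331) and the lipase cofactor gene Abhd5 by -0.26 ± 0.08 (adjusted P = 0.108), none of them called. Pparg was also the single call among 19 adipocyte markers, of which 12 lay below 0 (median -0.04), and 4 defining adipocyte markers summed to 16.4 to 27.2 at 28 weeks and 18.6 to 34.1 at 12 weeks. The part of adipocytes in the Pparg change was not tested.

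Cholesterol synthesis genes, which the study followed between the parental diets, had no call over time among 20 measured. On the log2 scale 17 of them lay above 0, with a median of 0.34, and the list mean per mouse was 6.63 to 7.88 (median 6.97) at 28 weeks and 6.20 to 7.55 (median 6.89) at 12 weeks, so that the mice of both ages overlapped widely. The smallest adjusted P was that of Acat2, which condenses acetyl-CoA (71.9 to 152 at 28 weeks and 54.1 to 103 at 12 weeks, log2 difference 0.52 ± 0.15, limma, adjusted P = 0.111). Hmgcs1, which makes HMG-CoA, was 291 to 959 (median 394) at 28 weeks and 187 to 544 (median 265) at 12 weeks (log2 difference 0.63 ± 0.24, adjusted P = 0.251), and the sterol desaturase Sc5d differed by 0.32 ± 0.10 (0.16). Among 26 fatty acid synthesis genes none was called and 18 lay above 0 (median 0.21). Of these Pnpla3 differed by 0.41 ± 0.12 (adjusted P = 0.112), Acsl3 by 0.62 ± 0.19 (0.134) and Mlxipl, the sugar-sensing factor ChREBP, by -0.47 ± 0.16 (0.199). The 23 genes of SREBP control and low-density lipoprotein uptake had 11 members above 0 and no call, with the smallest adjusted P, 0.0661, in the lysosomal lipase Lipa (log2 difference 0.34 ± 0.09).

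**Figure D3:**
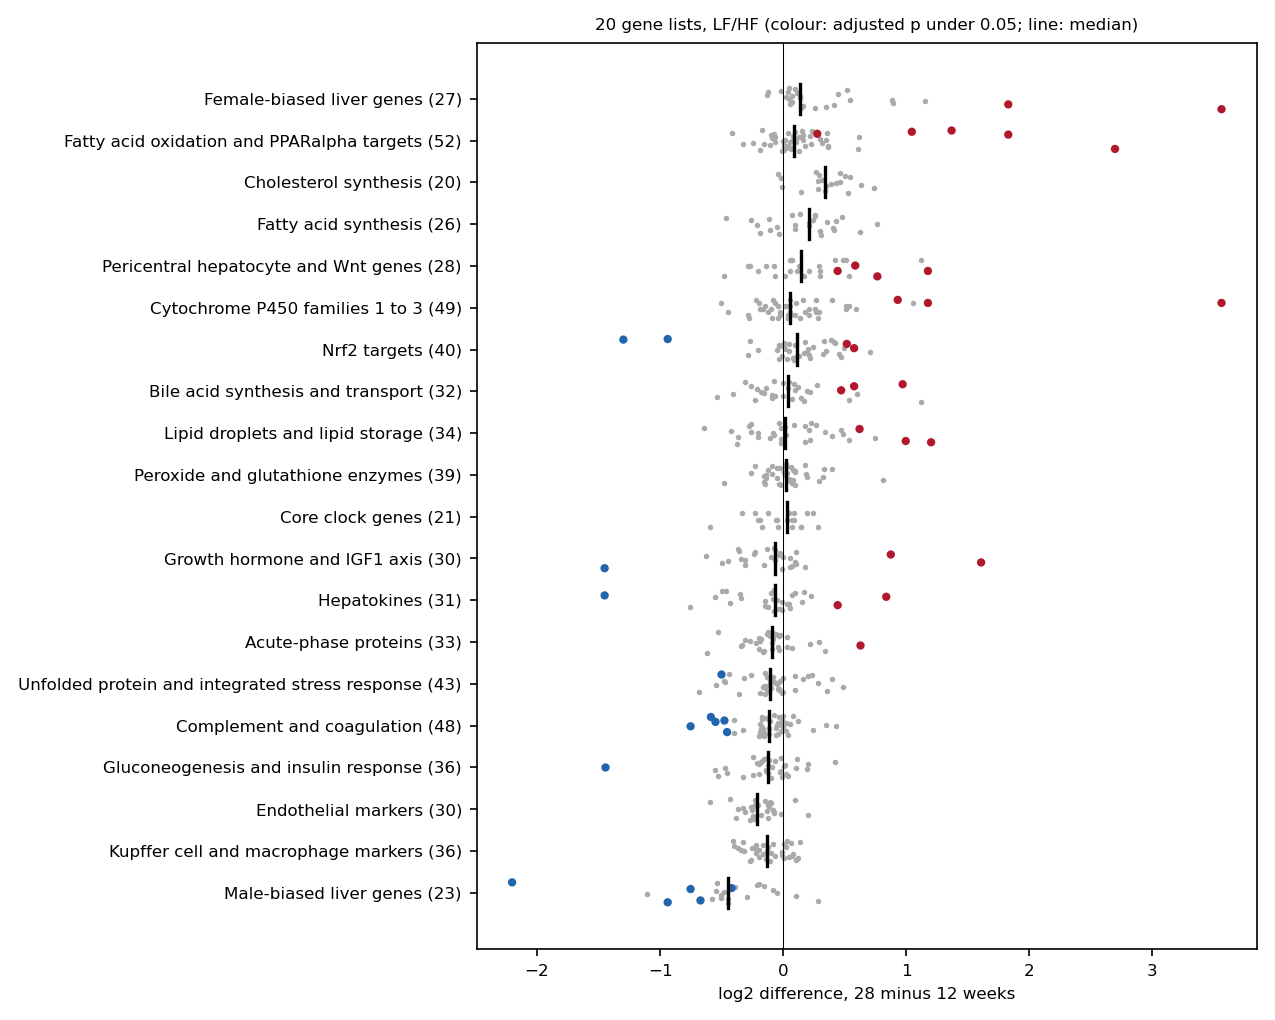
Log2 difference (28 minus 12 weeks, x axis) of each measured member of 20 gene lists, with the number of members in brackets and the list median as a black line. Coloured points passed an adjusted P of 0.05 (red higher, blue lower at 28 weeks), and the male-biased list lies furthest to the left with a median of -0.45.

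Genes that are higher in male than in female mouse liver were mostly lower at 28 weeks. Of 23 such genes measured, 21 lay below 0 with a median of -0.45, and 5 were called, all lower (21.7% of the list, against 0.407% of all genes called lower). Genes that are higher in females went the other way: of 27 measured, 24 lay above 0 with a median of 0.14. Of these 27, 2 were called, both higher (7.41% of the list, against 0.379% of all genes called higher). The list mean per mouse did not overlap for the male-biased genes, at 7.24 to 7.90 (median 7.62) in the livers of 28 weeks and 7.96 to 8.25 (median 8.12) in those of 12 weeks, nor for the female-biased genes, at 3.28 to 3.72 (median 3.45) and 2.85 to 3.17 (median 3.03) at the same ages. Without the 2 livers with muscle RNA the medians were -0.47 and 0.15, with 5 and 2 calls again. The direction of both lists had been seen in these data when they were chosen to be described.

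Selenbp2 had the largest change of the male-biased genes. It measured 204 to 642 (median 417) at 28 weeks and 975 to 2208 (median 1839) at 12 weeks. The highest older mouse was well below the lowest younger one, and the change was 4.60-fold (log2 difference -2.20 ± 0.30, limma, adjusted P = 6.41e-05). C6, a complement protein that is higher in males, was 217 to 422 at 28 weeks and 447 to 620 at 12 weeks, also without overlap (log2 difference -0.75 ± 0.12, adjusted P = 0.00115). Ugt2b38, a glucuronosyltransferase, was 20.0 to 31.1 at 28 weeks and 26.7 to 46.2 at 12 weeks (log2 difference -0.67 ± 0.14, adjusted P = 0.00991), and its adjusted P was 0.0501 without the 2 livers with muscle RNA.

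The glutathione transferase Gstp1 ranged between 753 and 2750 (median 1753) at 28 weeks and between 2660 and 3529 (median 3134) at 12 weeks, with 8 of 9 older mice below all younger ones (log2 difference -0.94 ± 0.19, limma, adjusted P = 0.00785). The related Gstp-ps, a pseudogene by its symbol, fell by 0.93 on the log2 scale, and how far their probe sets measured RNA of each other was not tested. The fifth called member was Keg1, a glycine N-acyltransferase-like gene, named after its value was seen (log2 difference -0.42 ± 0.10, adjusted P = 0.0373, lost in 10 of 16 refits without 1 mouse, up to 0.0979 without LF/HF 12 weeks replicate 3). Not called were Cyp2f2, a P450 of the periportal liver (-0.50 ± 0.14, adjusted P = 0.0745), Cyp2d9 (-0.45 ± 0.20), the fatty acid elongase Elovl3 (-0.58 ± 0.25), Hsd3b5 (-0.48 ± 0.60) and Bcl6, a repressor of female-biased genes (-0.45 ± 0.54).

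In the female-biased list the calls were Acot3, described above, and Cyp2b9, a P450 that adult male liver hardly expresses. Cyp2b9 was 66.9 to 436 (median 128) at 28 weeks and 6.95 to 32.6 (median 8.91) at 12 weeks. Each older mouse lay above every younger one, and the change of 11.8-fold was the largest rise of all called genes (log2 difference 3.56 ± 0.64, limma, adjusted P = 0.00279). The closely related Cyp2b13 differed by 0.14 ± 0.14 and Cyp2b10, the drug-induced member, by 0.06, neither called. Hao2, an oxidase of hydroxy acids, was 3.32 to 6.47 at 28 weeks and 2.64 to 4.29 at 12 weeks (0.52 ± 0.14, adjusted P = 0.0629). Cyp17a1 differed by 0.90 ± 0.50 and Cux2, a repressor that is made in female liver, by 0.08 ± 0.07. The Cyp2b9 promoter is shown because the gene rose most. The 250 bases before its start (RefSeq, GRCm38.p6, chr7:26173159-26173408, plus strand) hold 1 nuclear receptor half-site, AGGTCA on either strand, in capitals.
Cyp2b9: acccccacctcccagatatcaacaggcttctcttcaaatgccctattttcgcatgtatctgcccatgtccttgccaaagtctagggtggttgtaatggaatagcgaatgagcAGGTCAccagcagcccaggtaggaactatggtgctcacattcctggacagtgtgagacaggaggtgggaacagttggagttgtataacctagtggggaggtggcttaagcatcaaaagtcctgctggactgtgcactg
The half-site was in 17.7% of the promoter windows of genes called higher, in 10% of those called lower and in 14% of all windows of this length. Promoters were matched for 60 of the 80 genes called higher and 66 of the 86 called lower. The full PPAR direct repeat, 2 such half-sites with 1 base between them, was in no window of either set and in 0.0335% of all windows. At that rarity, sets of 79 and 90 windows would nearly always hold none, so its absence says nothing about either set. Cyp4a14 and Cyp4a10 were not among the genes with a matched promoter.

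The growth hormone and IGF1 list held 30 genes, of which 2 were called higher, Prlr among them, and 1, Igfbp1, lower. In either direction 10% of the list was called, against 0.786% of all genes. The prolactin receptor gene Prlr, which is higher in female liver, was 77.3 to 106 (median 92.8) at 28 weeks and 36.7 to 77.1 (median 50.2) at 12 weeks. The groups did not overlap, though the highest younger mouse was level with the lowest older one (log2 difference 0.87 ± 0.17, limma, adjusted P = 0.00785). The growth factor receptor Egfr, higher in males, differed by -0.62 ± 0.17 (adjusted P = 0.0641). The growth hormone receptor Ghr differed by -0.01 ± 0.08, its signal carrier Stat5b by -0.24 ± 0.12 and Igf1 by -0.07 ± 0.06, none called. Of the major urinary proteins, male-biased carriers of pheromones, 4 of 21 listed genes were measured, and all 4 lay below 0 without a call (Mup21 -0.51 ± 0.26, Mup4 -0.20 ± 0.10).

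P450 genes of families 1 to 3 had 3 calls among 49 measured, all higher at 28 weeks (6.12%, against 0.379% of all genes, median 0.05, 31 above 0): Cyp2b9, Cyp2c38 and Cyp2c39. Cyp2c38 was 32.9 to 134 (median 49) at 28 weeks and 15.5 to 32.8 (median 29.0) at 12 weeks (log2 difference 1.18 ± 0.27, limma, adjusted P = 0.0264, lost in 6 of 16 refits without 1 mouse, up to 0.0692 without LF/HF 12 weeks replicate 2). Cyp2c39 was 12.1 to 26.9 at 28 weeks and 4.51 to 10.4 at 12 weeks (0.93 ± 0.18, adjusted P = 0.00631). In both genes all 9 older mice lay above all younger ones, although for Cyp2c38 the lowest older and highest younger mouse were next to each other.

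Genes of the pericentral hepatocytes, which surround the central vein and are kept on by Wnt signals, gave 4 calls among 28 measured, all higher at 28 weeks (14.3%, against 0.379% of all genes, 21 above 0, median 0.15). Oat, the ornithine aminotransferase, was 1535 to 2236 (median 1943) at 28 weeks and 818 to 1664 (median 1059) at 12 weeks, with 7 of 9 older mice above all younger ones (log2 difference 0.77 ± 0.11, limma, adjusted P = 0.000159). Aldh1a1, a retinal dehydrogenase, was 2435 to 3246 at 28 weeks and 1584 to 2535 at 12 weeks (0.59 ± 0.11, adjusted P = 0.00315). Lect2, a secreted protein, changed by 0.44 ± 0.11 (adjusted P = 0.046, lost in 13 of 16 refits without 1 mouse, up to 0.118 without LF/HF 12 weeks replicate 3), and Cyp2c38 was the other. The list mean was 7.61 to 7.89 at 28 weeks and 7.25 to 7.60 at 12 weeks, without overlap.

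Bile acid genes had 3 calls among 32 measured, all higher at 28 weeks (9.38%, against 0.379% of all genes), with a median of 0.04. Without the 2 livers with muscle RNA 1 was called and the median was -0.000487. Slco1a4, an uptake carrier for bile acids and drugs, was 42.6 to 153 (median 91.7) at 28 weeks and 36.4 to 59.1 (median 40.2) at 12 weeks (log2 difference 0.97 ± 0.20, limma, adjusted P = 0.00989). The export pump Abcc3 and the steroid reductase Akr1d1 changed by 0.58 ± 0.14 and 0.47 ± 0.11 (adjusted P = 0.0373 and 0.0375), and these calls were lost in 9 and 11 of 16 refits without 1 mouse (up to 0.0987 without LF/HF 12 weeks replicate 7 and 0.106 without LF/HF 12 weeks replicate 1). Cyp7a1, the rate-limiting enzyme of bile acid synthesis, varied widely, at 92.0 to 697 at 28 weeks and 58.8 to 281 at 12 weeks, and was not called (1.12 ± 0.45, adjusted P = 0.273).

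Retinoid genes were listed after the values of Rdh16 and Rdh9 had been seen, so their count is a description. Of 34 measured 3 were called higher (8.82% of the list, against 0.379% of all genes called higher) and none lower. Of the 34, 20 lay above 0 (median 0.04). Rdh16, a retinol and steroid dehydrogenase, was 96.3 to 214 (median 121) at 28 weeks and 41.3 to 93.4 (median 64.4) at 12 weeks without overlap (log2 difference 1.08 ± 0.15, limma, adjusted P = 6.41e-05). Its relative Rdh9 was 238 to 442 at 28 weeks and 139 to 282 at 12 weeks (0.77 ± 0.13, adjusted P = 0.00115), and Aldh1a1 was the other. Cyp26a1, which breaks down retinoic acid, was 5.53 to 89.3 at 28 weeks and 4.45 to 7.13 at 12 weeks, with 7 of 9 older mice above all younger ones and no call (1.54 ± 0.47, adjusted P = 0.124).

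Oxidative stress was a theme of the study, and 40 targets of Nrf2, the factor that switches on antioxidant and detoxification genes, were measured. Of these 2 were called higher and 2 lower at 28 weeks (10% of the list, against 0.786% of all genes called in either direction). In the list 30 of 40 lay above 0 with a median of 0.12, against 53.4% of all genes above 0 and a median of 0.01. Gsta3, a glutathione transferase, was 1856 to 2655 (median 2206) at 28 weeks and 1431 to 1761 (median 1615) at 12 weeks. No mouse of one age reached the other (log2 difference 0.52 ± 0.07, limma, adjusted P = 4.66e-05). The second gene called higher was Abcc3. Osgin1, an oxidative stress-induced growth inhibitor, was 92.5 to 348 (median 122) at 28 weeks and 279 to 523 (median 382) at 12 weeks, with 8 of 9 older mice below all younger ones (-1.30 ± 0.24, adjusted P = 0.00315), and the other gene called lower was Gstp1.

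The best known Nrf2 targets were not called. Nqo1, a quinone reductase, was 12.8 to 20.3 at 28 weeks and 7.34 to 19.6 at 12 weeks (0.71 ± 0.22, limma, adjusted P = 0.144), Hmox1, heme oxygenase, differed by -0.27 ± 0.21, Gclc, the first enzyme of glutathione synthesis, by 0.02 ± 0.11 and Nfe2l2, which encodes Nrf2, by 0.09 ± 0.10. Of 39 further peroxide and glutathione enzymes none was called, 23 lay above 0 and the median was 0.03. Catalase (Cat) differed by -0.09 ± 0.10 and Gpx1 by -0.12 ± 0.06. The smallest adjusted P there were 0.0896 for Txnip, an inhibitor of thioredoxin (-0.48 ± 0.14), and 0.112 for glutaredoxin, Glrx (0.32 ± 0.10).

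Immediate early genes, which are switched on within minutes by growth factors, feeding or stress, were listed after Egr1 had been seen, so that their count too is a description. Of 33 measured 4 were called, all lower at 28 weeks (12.1% of the list, against 0.407% of all genes called lower). Of the 33, 23 lay below 0 and the median was -0.08. Egr1 was 11.6 to 37.1 (median 15.2) at 28 weeks and 40.3 to 177 (median 104) at 12 weeks. The groups did not overlap, and the change was 5.50-fold (log2 difference -2.46 ± 0.36, limma, adjusted P = 0.000159). Ier2 was 33.6 to 58.6 at 28 weeks and 55.8 to 90.1 at 12 weeks (-0.67 ± 0.12, adjusted P = 0.00315).

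Dusp1, a phosphatase that switches off MAP kinases, was 42.5 to 113 at 28 weeks and 78.0 to 294 at 12 weeks (-1.11 ± 0.27, limma, adjusted P = 0.0347). Zfp36, which speeds the decay of cytokine mRNAs, was 60.9 to 105 at 28 weeks and 92.1 to 207 at 12 weeks (-0.75 ± 0.18, adjusted P = 0.0375). These calls were lost in 8 and 9 of 16 refits without 1 mouse, each with the highest value without LF/HF 12 weeks replicate 1 (0.0994 and 0.116). Jun differed by -0.55 ± 0.20 and Nr4a1 by -0.60 ± 0.18 (adjusted P = 0.239 and 0.115), while Fos was low in all mice, at 5.05 to 9.41 at 28 weeks and 5.18 to 12.6 at 12 weeks. The 2 promoters below are shown because they hold sites by which such genes are known to respond, a cyclic AMP response element (CRE, TGACGTCA) in Dusp1 and an EGR site (GCGNGGGCG) in Zfp36, in capitals, found on either strand in the 250 bases before the start (RefSeq, GRCm38.p6, chr17:26508473-26508722 and chr7:28379229-28379478, both on the minus strand).
Dusp1: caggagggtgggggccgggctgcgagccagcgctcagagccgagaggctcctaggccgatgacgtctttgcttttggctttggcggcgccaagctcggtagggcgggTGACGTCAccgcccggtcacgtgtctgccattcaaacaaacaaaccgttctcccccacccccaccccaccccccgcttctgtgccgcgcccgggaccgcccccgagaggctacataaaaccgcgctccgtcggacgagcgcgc
Zfp36: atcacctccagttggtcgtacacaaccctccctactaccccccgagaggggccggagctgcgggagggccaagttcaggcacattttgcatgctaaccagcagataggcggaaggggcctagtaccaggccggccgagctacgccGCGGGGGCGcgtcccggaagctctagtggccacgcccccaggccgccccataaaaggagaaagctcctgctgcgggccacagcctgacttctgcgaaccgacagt
The EGR site was in 13.3% of the promoter windows of genes called lower, in 10.1% of those called higher and in 4.70% of all windows, and the CRE in 1.11%, 1.27% and 1.55% in the same order. The CArG box, a run of A or T between CC and GG, was also searched, and it was in 2.22%, 0% and 1.47% in that order. Among genes called lower, Gstp1 and Zfp36 held it, and the match in Zfp36 is not in capitals above. A match of letters is not a binding site.

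Igfbp1, which insulin switches off and fasting switches on, was 35.4 to 227 (median 55.5) at 28 weeks and 101 to 242 (median 182) at 12 weeks. LF/HF 28 weeks replicate 7 lay among the younger mice and the other 8 below all of them (log2 difference -1.45 ± 0.35, limma, adjusted P = 0.0353, lost in 11 of 16 refits without 1 mouse, up to 0.0748 without LF/HF 12 weeks replicate 1). It was the single call among 36 genes of gluconeogenesis and insulin response, of which 27 lay below 0 (median -0.12). The 21 core clock genes had no call and a median of 0.03. Arntl, which encodes BMAL1, was 6.30 to 22.5 at 28 weeks and 11.2 to 45.3 at 12 weeks (-0.59 ± 0.29, adjusted P = 0.415). A clock score per mouse, the mean log2 level of the clock genes of the morning less that of the clock genes of the evening, was -3.0 to -0.28 (median -1.90) at 28 weeks and -2.48 to 0.39 (median -1.46) at 12 weeks, and with it as a covariate 172 genes were called in all. Its part in the changes of the immediate early genes and Igfbp1 was not tested further.

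Complement and coagulation genes had 5 calls among 48 measured, all lower at 28 weeks (10.4% of the list, against 0.407% of all genes called lower), and 37 lay below 0 with a median of -0.12. C6, C8b and C9 are parts of the pore by which complement lyses cells, C2 is a protease of its activation and F11 a coagulation factor. C8b was 880 to 1540 (median 1393) at 28 weeks and 1742 to 2298 (median 1972) at 12 weeks without overlap (log2 difference -0.59 ± 0.11, limma, adjusted P = 0.00301). C9 was 1272 to 1727 at 28 weeks and 1846 to 2143 at 12 weeks, also without overlap (-0.46 ± 0.10, adjusted P = 0.0114). C2 was 91.3 to 156 at 28 weeks and 142 to 189 at 12 weeks (-0.48 ± 0.09, adjusted P = 0.00301).

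F11 was 234 to 468 at 28 weeks and 411 to 571 at 12 weeks (-0.55 ± 0.14, limma, adjusted P = 0.0496), and its call was lost in 12 of 16 refits without 1 mouse, up to 0.119 without LF/HF 12 weeks replicate 7. C8a, the partner of C8b, differed by -0.40 ± 0.12 (adjusted P = 0.102) and C3, the hub of the cascade, by -0.03. The list mean per mouse was 9.11 to 9.33 at 28 weeks and 9.25 to 9.35 at 12 weeks, and the groups overlapped. Without the 2 livers with muscle RNA, 4 complement and coagulation genes, 3 pericentral genes, 5 fatty acid oxidation genes, 3 Nrf2 targets, 4 P450 genes, 2 growth hormone and IGF1 genes, 1 glycolysis gene and 1 skeletal muscle gene were called, and no gene of gluconeogenesis or one-carbon metabolism. The called genes named here with an adjusted P of 0.05 or above without those livers were Igfbp1 (0.106), Dusp1 (0.107), Zfp36 (0.0987), Abcc3 (0.0545), Akr1d1 (0.107), Fabp2 (0.0827), Fitm1 (0.0978), Ugt2b38 and Acnat2 (0.0501 each), Lect2 (0.0679), Gatm (0.0687) and F11 (0.0687). Among 33 acute-phase genes the single call was Apcs, serum amyloid P, which was higher (111 to 265 at 28 weeks and 82.0 to 140 at 12 weeks, 0.62 ± 0.14, adjusted P = 0.0222, lost in 5 of 16 refits without 1 mouse, up to 0.0759 without LF/HF 12 weeks replicate 1), while 26 of the 33 lay below 0. Saa1 was 20.5 to 56.7 at 28 weeks and 30.9 to 80.8 at 12 weeks (-0.62 ± 0.36, adjusted P = 0.506).

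Hepatokines, proteins by which the liver signals to other organs, had 3 calls among 31: Serpinb1a and Lect2 higher and Igfbp1 lower (9.68%, against 0.786% of all genes called in either direction), of which 1 call remained without the 2 livers with muscle RNA. Serpinb1a, a protease inhibitor that stimulates β-cell growth in mice, was 23.1 to 37.2 at 28 weeks and 12.2 to 22.1 at 12 weeks without overlap (0.84 ± 0.16, limma, adjusted P = 0.00651). Enho, which encodes adropin, was 16 to 34.6 at 28 weeks and 27.7 to 61.5 at 12 weeks (-0.76 ± 0.20, adjusted P = 0.0624), and Fgf21 differed by -0.07 ± 0.29. In the unfolded protein response the sensor Ern1 was lower (74.2 to 143 at 28 weeks and 131 to 172 at 12 weeks, -0.51 ± 0.12, adjusted P = 0.026, lost in 7 of 16 refits without 1 mouse, up to 0.0713 without LF/HF 12 weeks replicate 3), and 34 of 43 genes of that list lay below 0 with a median of -0.10. Without the 2 livers with muscle RNA 30 of the 43 lay below 0, with a median of -0.04 and 1 call. The Ern1 target Xbp1 differed by -0.48 ± 0.15 (adjusted P = 0.137). Of 33 one-carbon genes Gatm, of creatine synthesis, was called lower (-0.42 ± 0.10, adjusted P = 0.0264, lost in 8 of 16 refits without 1 mouse, up to 0.0763 without LF/HF 12 weeks replicate 5).

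**Figure D4:**
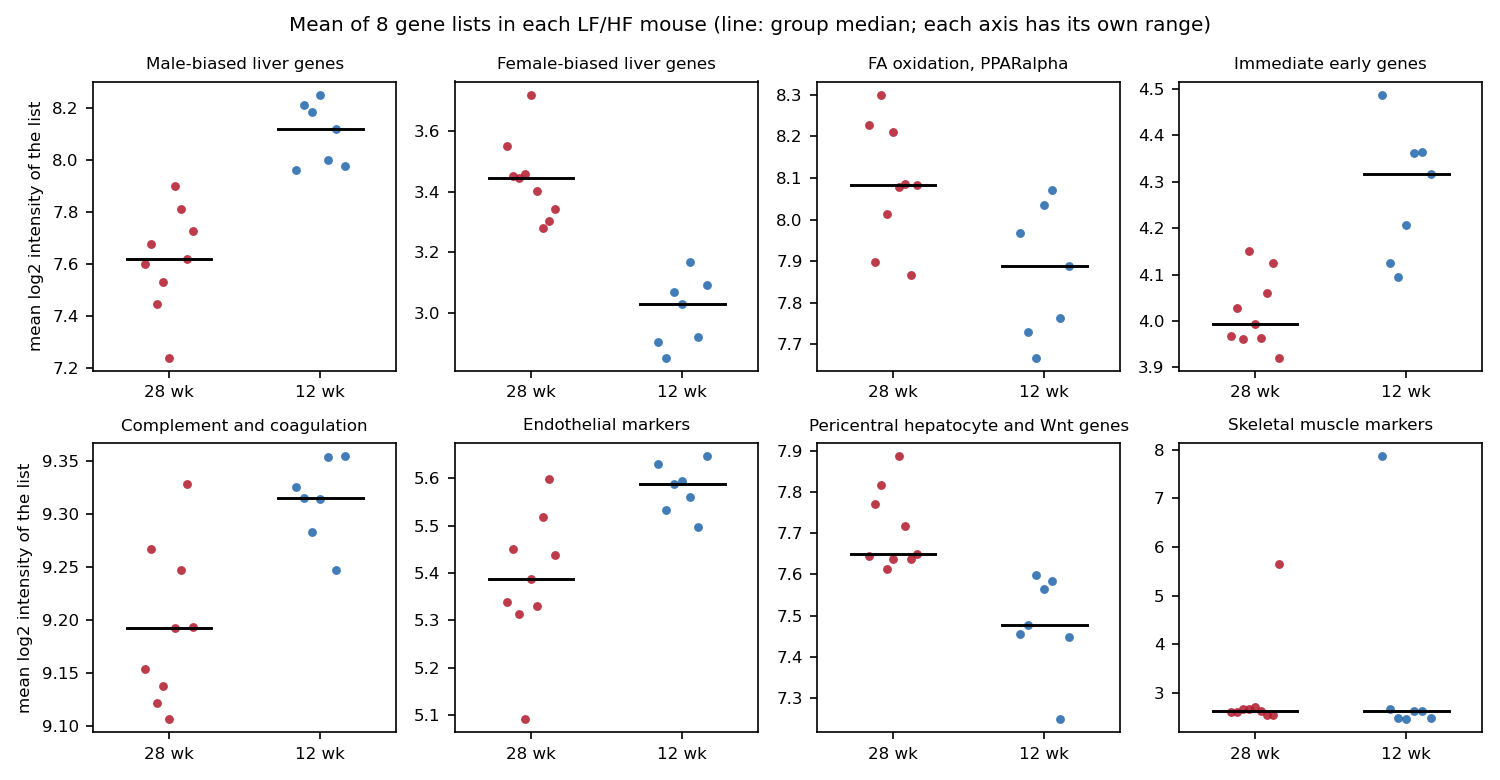
Mean log2 intensity of the members of 8 gene lists in each LF/HF liver, 9 of 28 weeks (red, left) and 7 of 12 weeks (blue, right), with group medians as lines. The groups separate for the male-biased, female-biased and pericentral lists, and the muscle panel shows LF/HF 28 weeks replicate 8 (5.64) and LF/HF 12 weeks replicate 1 (7.87) apart from the rest.

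Markers of other cells of the liver did not give a call. Of 30 endothelial genes 28 lay below 0 with a median of -0.21, and the list mean was 5.09 to 5.6 (median 5.39) at 28 weeks and 5.50 to 5.65 (median 5.59) at 12 weeks, so that the groups overlapped. The sinusoidal genes Lyve1, Stab1, Oit3 and Gpr182 differed by -0.60 ± 0.18, -0.31 ± 0.09, -0.37 ± 0.11 and -0.43 ± 0.13 (limma, adjusted P = 0.116 to 0.122). Kupffer cell and macrophage genes had 25 of 36 below 0 (median -0.13), and the 6 defining markers summed to 387 to 706 at 28 weeks and 517 to 728 at 12 weeks. Cd163, the macrophage receptor gene the study followed, was 11.6 to 26.1 at 28 weeks and 12.2 to 25.8 at 12 weeks (0.01 ± 0.20, adjusted P = 0.994). The part of these cells in the other changes was not tested.

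Genes of lipid-associated macrophages had 13 of 27 above 0 and no call, and Fabp5 and Lgals1, a fatty acid carrier and a galectin, differed in opposite directions (-0.80 ± 0.25 and 0.87 ± 0.30, limma, adjusted P = 0.144 and 0.182). Il1r1, the interleukin-1 receptor gene, was 60.4 to 130 at 28 weeks and 107 to 190 at 12 weeks (-0.53 ± 0.16, adjusted P = 0.113). Stellate cell and fibrosis genes (46 measured, median -0.09), collagens (28, -0.05), T and NK cell markers (45, 0.02), B and plasma cell markers (31, 0.05), neutrophil markers (25, 0.05), interferon-stimulated genes (60, -0.06) and proliferation genes (51, 0.04) had no call either. Of 40 proteasome subunits 32 lay above 0 (median 0.12), again without a call, and Actb, a common reference gene, differed by -0.14 ± 0.07 (adjusted P = 0.44). In all, 17 of the 52 lists held a called gene and 35 did not. Of the 1554 genes they measured 35 were called, against 166 of all 21115 genes (0.786%). The lists were chosen with earlier results of these data known.

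The same comparison in HF/HF offspring, which shares no mice with that in LF/HF offspring, called 10 genes (0.0474%), 3 higher (0.0142%) and 7 lower (0.0332%) at 28 weeks, and 865 genes (4.1%) met the criterion of the study, 1.76% higher and 2.33% lower. Of the 166 genes called in LF/HF offspring 157 (94.6%) changed in the same direction in HF/HF offspring, against 58.0% of all genes. Their median change was 0.56 log2 units in LF/HF offspring and 0.26 in HF/HF offspring in the same direction, and 165 of the 166 changed more in LF/HF offspring, where they were chosen for a large change. Of the 10 genes, 6 were called under both parental diets, among them Tnfaip2, Selenbp2, C8b, Cdh1 and Cdh18. Their log2 differences were -0.84 in LF/HF and -1.07 in HF/HF offspring for Tnfaip2, -2.20 and -1.74 for Selenbp2, -0.59 and -0.56 for C8b, -1.24 and -0.95 for Cdh1, and 1.04 and 0.68 for Cdh18, with the parental LF diet first. The other 4 genes called in HF/HF offspring were Tox (0.56 in LF/HF and 0.91 in HF/HF offspring), Itga5 (-0.23 and -0.66), Mpzl1 (-0.12 and -0.61) and the heat shock gene Hsph1 (-0.40 and -0.56). Without HF/HF 12 weeks replicate 3, the liver with muscle RNA, 12 genes were called in HF/HF offspring, 7 of them among the 10. Of the 12, 11 were among the 200 genes called in LF/HF offspring in the same refit, not all of them among the 166. The adjusted P of Cdh1, Hsph1 and Mpzl1 in HF/HF offspring was then 0.0596, 0.0548 and 0.0816.

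**Figure D5:**
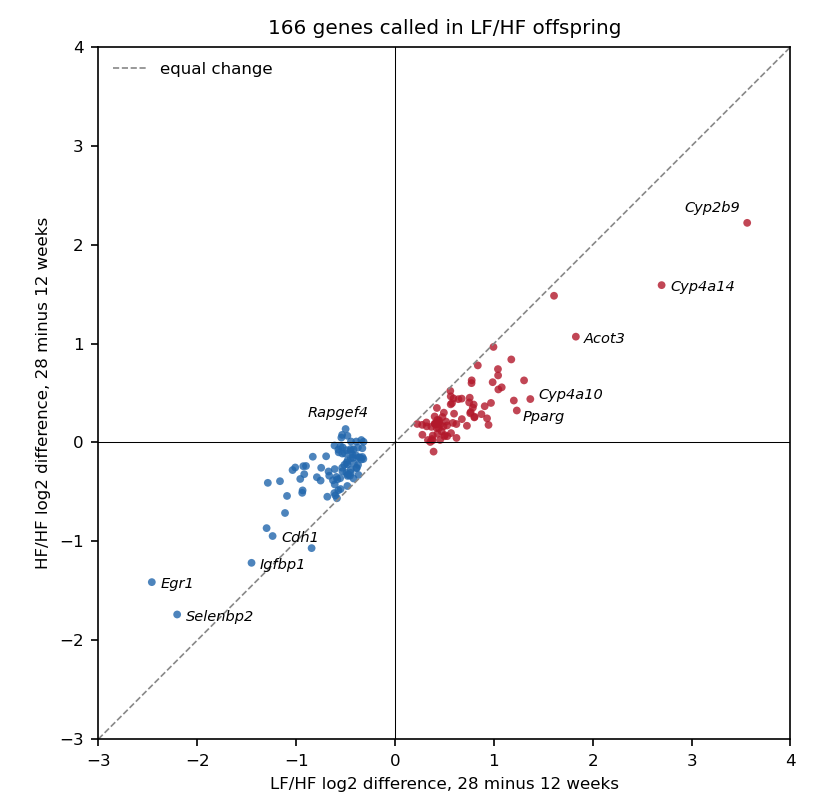
Log2 difference (28 minus 12 weeks) in LF/HF offspring (x axis) and in HF/HF offspring (y axis) of the 166 genes called in LF/HF offspring, red if higher and blue if lower there. Most points lie between the x axis and the dashed line of equal change, and Selenbp2 and Egr1 lie furthest to the left.

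Whether the change with time differed with the parental diet was tested directly. No gene passed the adjusted P for the difference between the age changes (smallest 0.749), and 1009 genes (4.78%) had an unadjusted P under 0.05 in limma, 2.6% more positive and 2.18% more negative in LF/HF offspring. For Cyp2b9 the change was 3.56 in LF/HF and 2.22 in HF/HF offspring (difference 1.34 ± 0.90), for Cyp4a14 2.70 and 1.59 (1.11 ± 0.66), for Egr1 -2.46 and -1.41 (-1.05 ± 0.50) and for Igfbp1 -1.45 and -1.22 (-0.23 ± 0.49). For Pparg it was 1.2 and 0.42 (0.78 ± 0.30), and for Cyp4a10 1.37 and 0.44 (0.93 ± 0.37). None of these differences passed the adjusted P (0.974 or above), which does not show the changes to be alike.

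Among the smallest unadjusted P of that difference were Rapgef4, an exchange factor that responds to cyclic AMP, which fell in LF/HF offspring (170 to 273 at 28 weeks and 242 to 345 at 12 weeks, -0.50 ± 0.10, limma, adjusted P = 0.00785) against 0.14 ± 0.10 in HF/HF offspring (difference -0.64 ± 0.14, unadjusted P = 8.37e-05, adjusted 0.884). Tbc1d8, a GTPase activator, likewise fell in LF/HF offspring (-0.48 ± 0.10, adjusted P = 0.00904) against 0.07 ± 0.10 in HF/HF offspring. Lpin1, a lipid phosphatase and coactivator whose methylation the study examined, was 96.7 to 204 (median 150) at 28 weeks and 108 to 239 (median 175) at 12 weeks in LF/HF offspring (-0.26 ± 0.18, adjusted P = 0.6), against a log2 difference of 0.68 ± 0.18 in HF/HF offspring (difference -0.94 ± 0.26, unadjusted P = 0.000784, adjusted 0.974). The ketone-using synthetase Aacs differed by 0.36 ± 0.31 in LF/HF and 1.16 ± 0.31 in HF/HF offspring, the phospholipase Plaat3 by -0.42 ± 0.19 and 0.04 ± 0.19, and Il1r1 by -0.53 ± 0.16 and 0.24 ± 0.16. The clock score of HF/HF offspring was -2.75 to -1.02 (median -1.73) at 28 weeks and -1.87 to 0.85 (median -0.13) at 12 weeks, and its part in the differences between the parental diets was not tested.

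By their names the arrays form 2 series, with 5 and 4 LF/HF livers of 28 weeks and 3 and 4 of 12 weeks. Within the first series 6 genes were called and within the second none, while 1709 and 1280 genes met the criterion of the study there, and with the series as a block 176 genes were called. All 53 called genes named here had the same direction in both series. They were chosen by their change over both series together, which favours such agreement, so it is no independent support. For Cyp2b9 the log2 difference was 3.94 in the first and 3.31 in the second series, for Pparg 1.30 and 1.12, for Egr1 -2.97 and -2.11, and for Selenbp2 -2.42 and -2.10.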

How the data were processed

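Liver RNA of 32 male mice was measured on whole-transcript mouse gene arrays from Affymetrix, 1 per mouse. The authors ran RMA through MADMAX, which left 1 probe set for each gene, and deposited linear intensities. Their fold changes, p-values and q-values were deposited too and were not used here. Tool versions and the build are not given in the sources used here. A further deposited table of the same arrays differed by at most 7.15e-10 on the log2 scale and served to read the array names.

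The log2 of each intensity was fitted in R 4.3.3 with limma 3.58.1, with 4 group means estimated from the 32 arrays together and moderated variances (eBayes) that followed intensity. No gene was filtered, and P was adjusted by Benjamini and Hochberg over 21115 genes. Of these, 20405 were named by the platform annotation, 527 by RefSeq gene ID and 183 stayed unnamed. The study used a paired moderated test, but the pairs are not given, so an unpaired fit was used. SE and P come from this fit. The fit was also run on simulated data with known changes. Those values were drawn independently for each gene and mouse, and they hold no litters or array series. The number of mice limits the precision.

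Named genes were, without predicted genes, the 12 largest rises and falls past the adjusted P, the members of each list with the smallest P (at most 4), up to 5 genes per direction for the difference between parental diets, the genes the study names for expression, and cell markers. Some genes that met this rule are not reported here. Further list members were added for their known role, with their values seen. Ier2, Zfp36, Rdh9, Tox, Itga5, Mpzl1, Tnfaip2, F11 and Gstp-ps were also chosen after their values were seen. Members and lists (52, and 2 added later) were chosen with earlier results of these data known. Alternatives were the eBayes trend, a block of replicate numbers, a filter on low genes, cyclic loess or median centring, array weights, the LF/HF arrays alone, each mouse left out, the clock score, the array series, stricter thresholds and an exact two-sided permutation of the 16 LF/HF mice. Leaving out the HF/HF mouse with muscle RNA was chosen after seeing the data. Promoters (250 bases before the start) are from RefSeq, GRCm38.p6. Figures were drawn with matplotlib 3.10.9 in Python 3.11.15.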

Additional observations from a re-analysis of the deposited data

Results flagged for a closer look

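Of 266 sets of values (a gene or list in 1 LF/HF group), 20 held a mouse far from the others of its age by Dixon's test, against 13.3 that chance gives at 1 in 20. LF/HF 28 weeks replicate 7 had 5 of these. It was high in Igfbp1 (227, others 35.4 to 83.4) and low in the sinusoidal genes Oit3 (47.2, others 72.9 to 106) and Gpr182 (44.6, others 70.6 to 104) and in Cd163 (11.6, others 18.4 to 26.1) and Igf1 (747, others 892 to 1070).

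Among the other mice of 28 weeks, C8b was low in replicate 9 (880, others 1230 to 1540), Gatm high in replicate 6 (45.3, others 25.3 to 33.9), Mup21 high in replicate 2 (780, others 448 to 589), Mup4 low in replicate 8 (2.46, others 3.20 to 3.82) and Itga5 high in replicate 4 (55.4, others 39.9 to 45.9). Among those of 12 weeks, Cyp2c39 was low in replicate 4 (4.51, others 8.11 to 10.4), as was Oit3 (93.5, others 107 to 112), Aldh1a1 was high in replicate 6 (2540, others 1580 to 1870) and Mlxipl was high in replicate 1 (685, others 345 to 450). Also at 12 weeks, C8a was low (1140, others 1320 to 1440) and Cyp2b13 high (5.7, others 3.1 to 3.93) in replicate 6, Cyp17a1 low in replicate 2 (21.5, others 61 to 117) and Nqo1 high in replicate 5 (19.6, others 7.34 to 10.6). The geometric mean of 36 skeletal muscle genes was 50 in LF/HF 28 weeks replicate 8 (others 5.79 to 6.55) and 233 in LF/HF 12 weeks replicate 1 (others 5.48 to 6.31).

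Npy4r, a receptor for pancreatic polypeptide, differed with time in opposite directions under the 2 parental diets. Every LF/HF mouse of 28 weeks lay above the mean of the LF/HF mice of 12 weeks, and every HF/HF mouse of 28 weeks lay below that of the HF/HF mice of 12 weeks. The log2 differences were 0.33 ± 0.09 in LF/HF and -0.27 ± 0.09 in HF/HF offspring, and the difference between them, 0.604, had an unadjusted P of 3.55e-05 and did not pass the adjusted P (limma, 0.749).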

How the results depend on the processing

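None of the 53 called genes among the 132 run under the alternatives turned direction in any of them, though they were called in these same mice. The 166 calls became 258 when genes below the median level were left out before the fit, and 158 of these were among the 166. The parts of fewer tests and of the newly estimated variances in that rise were not tested. At the stricter thresholds, 57 passed an adjusted P of 0.01, and 74 an adjusted P of 0.05 with a fold change over 1.5. Only within the first array series 6 genes were called, and 3 of the 132, and within the second 0 and 0, with fewer mice. With replicate numbers as a block 91 genes were called, 88 of them among the 166. Between the LF/HF mice of 28 and 12 weeks, the correlations of same-numbered mice were -0.154 to 0.0239 over 7 pairs. Of these pairs 0 were over 0.1, and 0 mice correlated best with their own number. Whether the numbers pair LF/HF with HF/HF mice was not tested. Leaving out 1 mouse gave 96 to 272 genes, namely 109, 272, 105 and 96 without LF/HF 28 weeks replicates 5, 6, 7 and 9, and 106, 99 and 107 without LF/HF 12 weeks replicates 1, 3 and 7. The cause was not tested. Of the 132 genes, 53 were called, 37 to 62 without 1 mouse, and 35 of the 53 in each such refit. By exact permutation of the 16 LF/HF mice, two-sided and unadjusted, 97 had a P under 0.05, where 8.74e-05 is the smallest possible. Many of the 132 were chosen for a large change or small P in these mice, so that count is no independent support. The permutation was run for these genes only, and the share over all genes is not known. Without both mice with muscle RNA 111 genes were called, and the remaining alternatives gave 139 to 212. The count by the study criterion stayed within 1191 to 1874, and the difference between parental diets had 0 calls in every limma fit run, with 1009 genes at an unadjusted P under 0.05.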
